A study of Mus musculus with 15 samples.

Results

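The cytosolic ribosomal protein genes were examined in mouse embryonic stem cells (ESCs) depleted of TET1 or TET2. Members were the rows of the gene table named Rpl or Rps with a number, optionally followed by a or x, plus Rpsa, Rplp0, Rplp1 and Rplp2, whereas names marked as pseudogenes were left out. This gave 76 of 26061 genes, of which 45 encode proteins of the large subunit and 31 proteins of the small subunit. The rule used names alone and no measured value. All 76 members were above the lowest value of the table in every library, with at least 51 reads, and all were tested.

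The cells were E14, a feeder-free ESC line of 129/Ola background grown in serum and LIF. A lentiviral pLKO.1 vector carried a non-targeting hairpin (shScr), a hairpin against Tet1 (shTet1) or a hairpin against Tet2 (shTet2), with a single hairpin sequence per target, and RNA was extracted following 3 days under puromycin. Each group held 5 libraries of rRNA-depleted total RNA, and all of them, controls included, were transduced and selected. No source ties the replicates to separate infections, so p-values measure the spread between these libraries, which may be technical.

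Ribosomal proteins, together with rRNA, build the particle that translates mRNA, and each is needed in about equal number per ribosome. Their mRNAs are abundant in growing cells and usually begin with a run of pyrimidines, the 5′ terminal oligopyrimidine (TOP) tract, through which LARP1 and mTOR signalling adjust their translation. Mammalian genomes also hold many processed copies of these genes, most of them pseudogenes, and many of the parent genes host small nucleolar RNAs in their introns.

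Start sequences are shown first because ribosomal protein mRNAs are known for their TOP tract. RefSeq start windows (GRCm38.p6 table) were found by gene name or alias for 56 members, in 66 windows. The windows printed below were also located in mm9 by exact match. The letters CTTTCC stood on the sense strand within 30 bases of the start in 12 of the 66 windows (18.18%), against 2.89% of 32851 windows of all genes. The longer CTCTTTCC, which contains it, was in 4.55% and 0.27%, respectively. In these windows of 30 bases before and 30 after the RefSeq start, the capitals mark CTTTCC:
Rpl28 (chr7:4744537-4744596, + strand): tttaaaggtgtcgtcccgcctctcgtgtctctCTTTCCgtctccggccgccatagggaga
Rpl38 (chr11:114529864-114529923, + strand): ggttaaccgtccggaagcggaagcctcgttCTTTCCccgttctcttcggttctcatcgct
Rpl15 (chr14:19103471-19103530, - strand): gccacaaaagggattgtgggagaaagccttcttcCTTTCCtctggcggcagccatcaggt
Rps10 (chr17:27772160-27772219, - strand): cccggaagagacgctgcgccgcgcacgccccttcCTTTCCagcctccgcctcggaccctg
Rps27 (chr3:90017541-90017600, - strand): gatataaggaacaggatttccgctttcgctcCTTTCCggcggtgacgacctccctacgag
The same window of Rps16, the member with the widest spread between libraries, and of Rps7, the next, held no CTTTCC:
Rps16 (chr7:29135678-29135737, + strand): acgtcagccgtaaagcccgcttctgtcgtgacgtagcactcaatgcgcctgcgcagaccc
Rps7 (chr12:29320789-29320848, - strand): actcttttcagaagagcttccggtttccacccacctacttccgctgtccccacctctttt
The Rpl38 and Rps10 windows also show CCGGAAG, a core bound by ETS-family factors, and the Rps7 window shows it on the opposite strand. This motif was found on either strand between positions -250 and 50 from the start in 36.36% of member windows and 8.86% of all. TATAAA was in none of the member windows over the 50 bases before the start, against 2.63% of all. A match describes the letters in these windows and does not show that a factor binds there.

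Copies elsewhere in the genome bear on every level below, since the authors' alignment placed each read that matched several positions equally well at only 1 of them. For each member, every 75-base stretch of its shortest CCDS transcript was looked up in the mm9 genome outside its own gene. The median member had an exact copy elsewhere for 61.1% of its stretches, and 45 of 76 members had one for over 50% of them. Rps3 had none, whereas Rps27 reached 99.6% and Rps12 98.0%. The following 50-base coding stretches cross an exon junction, marked by 4 capitals on each side, and are nevertheless found without an intron elsewhere. The copies numbered 21 for Rps12 and 15 each for Rps6 and Rpl30:
Rps12 (chr10:23505038-23505389, - strand): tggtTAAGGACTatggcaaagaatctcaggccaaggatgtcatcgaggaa
Rps6 (chr4:86500836-86501796, - strand): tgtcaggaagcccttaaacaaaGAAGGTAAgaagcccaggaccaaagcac
Rpl30 (chr15:34370329-34371005, - strand): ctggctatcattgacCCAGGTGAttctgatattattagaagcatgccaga
Reads from such stretches could have been counted at the gene or at a copy, so the level of a member is uncertain where this share is high. In addition, 30 members held 58 annotated small nucleolar RNA genes, which touched an annotated exon in 15 members, and 16 members overlapped a gene on the opposite strand. Whether the counting used strand was not stated.

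Reads recovered per library ranged from 15258291 to 35432425 in genes. The targets followed the labels. Tet1 lay between 13.68 and 14.25 in shScr and between 11.93 and 12.41 in shTet1 on the deposited log2 scale, whereas Tet2 lay between 13.15 and 13.52 in shScr and between 11.12 and 11.61 in shTet2. The 8 pluripotency genes checked, among them Pou5f1, Nanog and Sox2, had 1338 to 40817 normalised reads in every library, and the 7 fibroblast genes at most 182. The 5 primitive endoderm genes checked had at most 312 and the 5 trophoblast genes at most 659. Olfactory and vomeronasal receptor genes, used here as a measure of background, took 11.1 to 64.7 of every 1000000 gene reads, with the most in shScr 4, shTet1 3, shTet1 4 and shTet2 4. Replicates 1 and 2 differed from replicates 3 to 5 in all groups, a split known from all genes of these libraries and given within each result it touches.

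Members differed widely in level. Scaled reads per kilobase of all annotated exons in shScr were highest for Rpl4 (44644 ± 5983, SD, n = 5), a protein lining the tunnel through which the new peptide leaves. They were followed by Rpl8, a core protein of the large subunit, at 38658 ± 4400 and by Rplp1, one of the acidic proteins of the P stalk that recruits elongation factors, at 32649 ± 9878. Rpl32 and Rps7 came next at 26785 ± 5198 and 24471 ± 13377. The ranges of mean ± SD overlapped between neighbours in this order, so that it was not resolved step by step.

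The lowest members per kilobase of annotated exons were Rpl28 at 228 ± 41.8, Rpl35a at 374 ± 49.8, Rps19 at 421 ± 101, Rpl11 at 441 ± 63.8 and Rps28 at 536 ± 97.1. Rpl4 thus stood 196 times above Rpl28. This order rested partly on the length used. Per kilobase of the shortest CCDS transcript, Rpl28 (431) and Rpl11 (1428) stayed among the 5 lowest, whereas Rps19 (3115) was at rank 60 of 76 and Rpl35a (2684) at rank 65. Rpl22 (51508) then stood above Rpl4 (44644), whereas it was at rank 16 by all exons. Rpl4, Rpl8 and Rplp1 were among the 5 highest by both lengths.

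**Figure D1:**
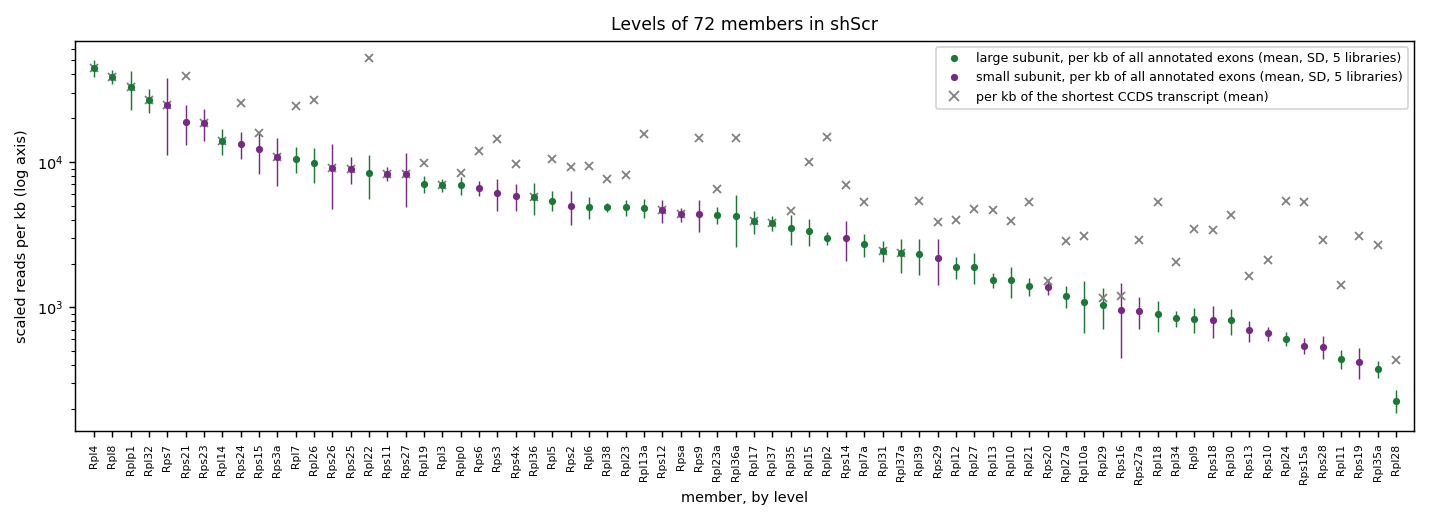
Scaled reads per kilobase (log axis) in the 5 shScr libraries for 72 of the 76 members, ordered from highest to lowest per kilobase of all annotated exons; dots and bars are mean and SD, green for the large and purple for the small subunit, and crosses give the mean per kilobase of the shortest CCDS transcript. Rpl4 is highest at 44644 and Rpl28 lowest at 228, and crosses far above their dots mark members with long annotated exons outside that transcript.

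Across the 76 members, the level per kilobase and the percent of 75-base stretches with a copy elsewhere had a Spearman correlation of -0.27 with all exons and -0.26 with the short transcript. All points share the same libraries and the same alignment, and part of both quantities depends on length. Rpl4 (9.20% of stretches with a copy) and Rpl8 (4.95%) were high with few copies, and Rpl28 (83.52%) was low with many.

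Members together took 22.7 to 31.5 of every 1000 gene reads. The 5 shScr libraries had 22.7, 27.9, 31.2, 27.9 and 26.2 in the order of their replicate numbers, the shTet1 libraries 23.9, 27.2, 28.9, 30.2 and 29.7, and the shTet2 libraries 29.0, 27.8, 25.0, 31.5 and 28.4. The groups overlapped throughout. The shScr mean was 27.2 ± 3.08, the shTet1 mean 28.0 ± 2.53 and the shTet2 mean 28.3 ± 2.34 (each SD, n = 5), so that all differences between means, 0.81, 1.16 and 0.35 for shTet1 and shTet2 against shScr and for shTet2 against shTet1, were below the spread within groups. Within replicates 1 and 2 the differences were 0.28, 3.09 and 2.81, and within replicates 3 to 5 they were 1.17, -0.13 and -1.30. The 45 large-subunit members took 17.3 ± 1.84, 17.8 ± 1.48 and 18.2 ± 1.46 per 1000 and the 31 small-subunit members 9.85 ± 1.32, 10.2 ± 1.06 and 10.1 ± 0.902 in shScr, shTet1 and shTet2.

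**Figure D2:**
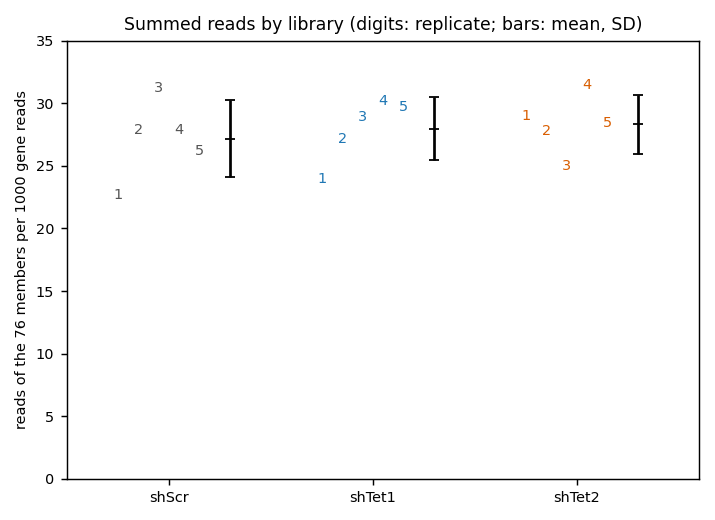
Reads of the 76 members per 1000 gene reads (vertical axis, from 0) in each library; digits are replicate numbers and bars give the mean and SD of 5 libraries per group. The group means of 27.2, 28.0 and 28.3 lie within the spread of each group, which runs from 22.7 to 31.2 in shScr.

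The first comparison asked how RNA of the members differed after depletion of TET1. No member passed the test in shTet1 against shScr (limma with Benjamini-Hochberg adjustment over 19490 genes), where 0.0718% of all genes tested did. None had an unadjusted p under 0.05, against 11.8% of all genes, and none had values that did not overlap between groups, against 2.62% of all genes. In voom on the recovered reads, the count of members called was also 0. The members' median difference was 0.004 on the log2 scale, with 40 higher and 36 lower, against 0.013 over all genes tested.

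In shTet1 against shScr, Rpl24, a large-subunit protein at the face towards the small subunit, had the lowest difference and the smallest p. Its log2 levels were 11.64, 11.97, 11.71, 11.93 and 11.98 in shScr replicates 1 to 5 and 11.65, 11.28, 11.63, 11.37 and 11.80 in shTet1. Of the 5 shTet1 values, 3 were below every shScr value, and the other two lay inside the shScr range. Rpl24 thus differed by -0.30 (95% confidence interval -0.61 to 0.01, SE 0.15, limma adjusted p = 0.435).

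Other members low in shTet1 included Rps15a (-0.14), Rps19 (-0.13), Rpl30 (-0.13), Rpl27 (-0.13) and Rpl18 (-0.13), all with intervals across 0. The highest difference was that of Rps16, a small-subunit protein near the decoding site, at 0.63 (SE 0.59, interval -0.61 to 1.88). Rps16 was low in replicate 2 of all groups and lowest in that of shScr. The difference was -0.03 without shScr replicate 2, a setting that kept the low replicate 2 of shTet1. Between same-numbered libraries, Rps16 was higher in shTet1 in 5 of 5 pairs, by 0.29, 1.71, 0.41, 0.46 and 0.30 (limma adjusted p = 0.06 with the replicate block). Rps26, at the mRNA exit of the small subunit, had 0.34 (SE 0.31), or -0.05 without shScr replicate 2, and was higher in 3 of 5 pairs. Rps29, a small zinc-binding protein that was also low in replicate 2 of all groups, had 0.27 (SE 0.34). It had -0.03 without shScr replicate 2 and with the low replicate 2 of shTet1 kept. Between same-numbered libraries Rps29 was higher in 4 of 5 pairs, with differences of -0.22, 0.52, 0.03, 0.26 and 0.75. Rpl28 (0.26), Rps15 (0.20), Rpl11 (0.19) and Rpl38 (0.15) were also among the highest.

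The intervals set how large a change could have been missed. In shTet1 against shScr, the 95% interval of 57 members lay within ±0.5 and that of 75 members within ±1 on the log2 scale. The half-width of the interval was 0.34 for the median member, 0.25 for the most precise and 1.24 for Rps16. The members' median moved from 0.004 to -0.048 with median centring and to 0.047 with quantile normalisation, and was -0.110 within replicates 1 and 2 and 0.082 within replicates 3 to 5.

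The second comparison asked the same of TET2. In shTet2 against shScr, 0 of 76 members passed the test, where 0.39% of all genes did. None of the 76 had an unadjusted p under 0.05, against 11.6% of all genes, and 0 members had groups that did not overlap, against 2.7%. The median difference was 0.007 with 39 members higher and 37 lower, against 0.038 over all genes. It was 0.050 for the small and -0.008 for the large subunit.

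In shTet2 against shScr, Rpl13, a large-subunit protein, had the smallest p and a difference of 0.27 (SE 0.13, interval -0.01 to 0.55, limma adjusted p = 0.464). Its levels were 11.74, 12, 12.02, 11.79 and 11.62 in shScr and 12.07, 11.78, 12.26, 12.02 and 12.38 in shTet2, with 3 of the 5 shTet2 values above every shScr value. Rps16 again had the highest difference, 0.54 (SE 0.59), which was -0.12 without shScr replicate 2 and with the low replicate 2 of shTet2 kept. It was higher in 5 of 5 same-numbered libraries, by 0.27, 1.52, 0.14, 0.74 and 0.02 (limma adjusted p = 0.111 with the replicate block). The pairing was not settled in any comparison and is least certain between shTet2 and shScr. Deviations of the replicate 3 libraries from their group means correlated at 0.008 across all genes and -0.266 across members. After Rps16, the highest differences were those of Rps28 (0.26), Rpl11 (0.22), Rpl37 (0.21), Rps18 (0.21), Rps13 (0.21) and Rps20 (0.20).

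The lowest difference in shTet2 against shScr was that of Rpl36a, an X-linked large-subunit gene, at -0.31 (SE 0.28, interval -0.89 to 0.27). Its levels were 11.72, 12.57, 13.41, 12.76 and 12.99 in shScr and 12.25, 12.35, 12.08, 12.61 and 12.61 in shTet2, so that the shTet2 values lay inside the shScr range. Rps7 (-0.30), Rps3a (-0.28), Rps21 (-0.27), Rpl30 (-0.22), Rpl18 (-0.20), Rpl8 (-0.20) and Rpl9 (-0.18) came next. The interval of 46 members lay within ±0.5 and that of 74 within ±1. Within replicates 3 to 5 alone, 11 of 76 members had an unadjusted p under 0.05, where 1166 of 19490 genes did. None of the 11 passed after adjustment. The members' median was 0.006 there, against 0.037 within replicates 1 and 2.

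The third comparison set the knockdowns against each other. Its differences do not use the control libraries, which enter its tests through the estimate of the spread shared by the 3 groups. In shTet2 against shTet1, 0 of 76 members passed, where 4.24% of all genes did. Only Rps15a had an unadjusted p under 0.05, against 15.7% of all genes, and 0 members had groups that did not overlap, against 6.04%. The median difference was 0.021, with 43 members higher and 33 lower, against 0.015 over all genes.

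Rps15a, a small-subunit protein, had levels of 11.41, 11.59, 11.62, 11.53 and 11.87 in shTet1, compared with 12, 11.83, 11.93, 11.78 and 11.86 in shTet2. The single overlap came from shTet1 replicate 5, which was above 3 of the shTet2 libraries. The difference was 0.28 (SE 0.12, interval 0.03 to 0.52, limma adjusted p = 0.251). In shScr the gene ranged from 11.61 to 12.02, which held all 5 shTet2 values, whereas 3 of the 5 shTet1 values lay below it.

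In shTet2 against shTet1, Rpl13 (0.24), Rps13 (0.23), Rps28 (0.22), Rpl37 (0.20), Rpl27a (0.15), Rplp2 (0.13) and Rps6 (0.13) stood next to Rps15a at the high end. At the low end were Rps7 (-0.37), Rps29 (-0.29), Rpl36a (-0.26), Rps26 (-0.24), Rps21 (-0.23), Rps3a (-0.20), Rpl38 (-0.16) and Rpl39 (-0.14). For Rps7 the SE was 0.36, and its difference was 0.07 within replicates 1 and 2 and -0.66 within replicates 3 to 5. The interval of 57 members lay within ±0.5 and that of 74 within ±1. The members' median was 0.158 within replicates 1 and 2 and -0.073 within replicates 3 to 5.

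**Figure D3:**
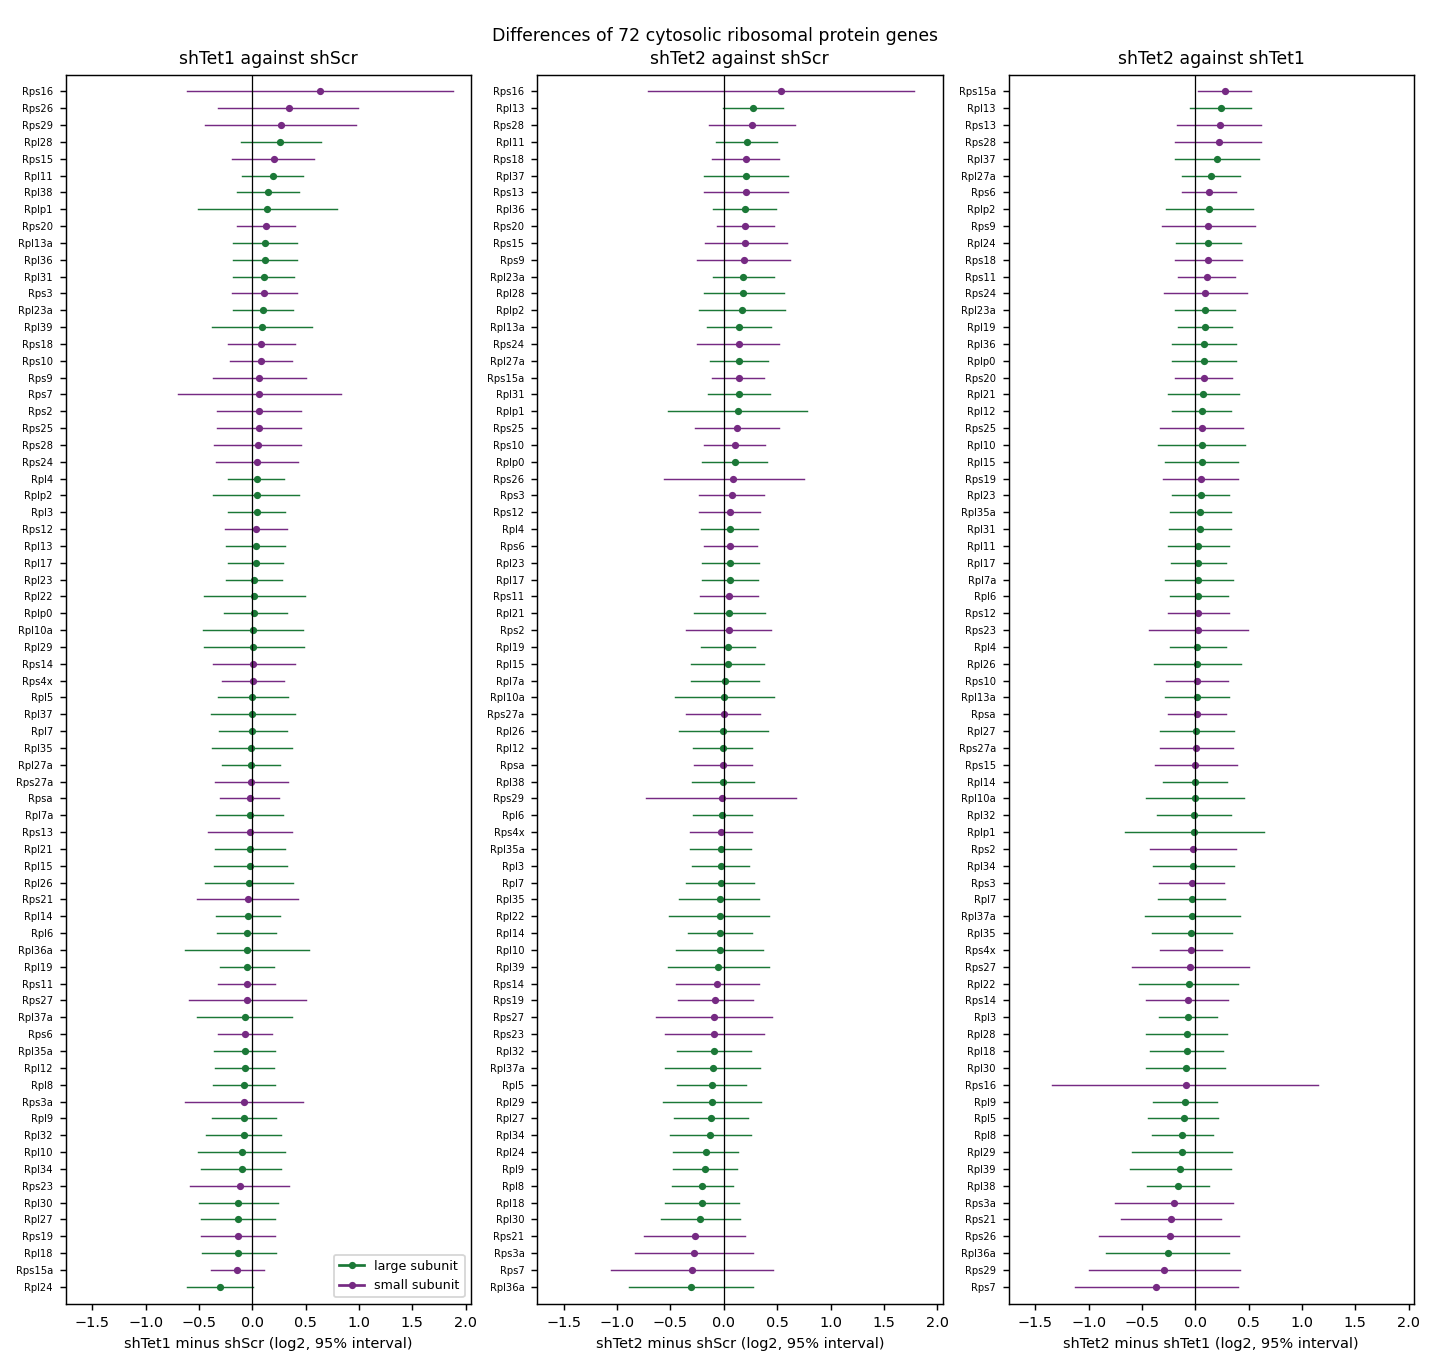
Differences of 72 of the 76 members (horizontal axes, log2 scale) for TET1 depletion, for TET2 depletion and between the knockdowns, each panel ordered by its own values; dots are limma differences, lines their 95% confidence intervals, green for the large and purple for the small subunit. All intervals cross 0 except that of Rps15a in shTet2 against shTet1 (0.03 to 0.52), and the widest are those of Rps16.

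No functional group of members held a gene past the threshold in any comparison. For the P stalk (Rplp0, Rplp1, Rplp2 and Rpl12) the median differences were 0.032, 0.116 and 0.068 for TET1 depletion, for TET2 depletion and between the knockdowns. Rpl5 and Rpl11 form the 5S particle, which can also bind and inhibit MDM2. Their differences were 0.00 and 0.19 in shTet1 and -0.11 and 0.22 in shTet2 against shScr. The 8 members around the peptide exit tunnel, among them Rpl4, Rpl17 and Rpl39, had medians of 0.033, 0.048 and 0.026 in the same order of comparisons. The 4 members on the mRNA entry and decoding side (Rps2, Rps3, Rps15 and Rps23) had medians of 0.088, 0.062 and -0.008. The 18 genes mutated in Diamond-Blackfan anaemia, a failure of red cell production, had medians of -0.002, -0.028 and 0.021. The shScr libraries are shared by the first pair of comparisons.

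Members differed in how far they varied between libraries of the same group. The SD within groups, pooled over the 3 groups, was 0.26 for the median member, against 0.27 for 7806 other tested genes whose mean level was at or above that of the lowest member. It reached 1.16 in Rps16, 0.69 in Rps7 and 0.64 in Rps29, and was above 0.5 in 6 members. Rpl4 (0.14), Rpl19 (0.15) and Rps6 (0.15) varied least, and 21 members had an SD under 0.2. Across members, the SD and the log2 length of the short transcript had a Spearman correlation of -0.48, and the SD and the share of stretches with copies elsewhere one of 0.09.

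Rps16 (chromosome 7, 29135671 to 29137715, + strand, mm9) varied with the replicate number. Its log2 levels were 9.74, 6.62, 9.88, 10 and 10.15 in shScr, 10.03, 8.33, 10.29, 10.46 and 10.44 in shTet1 as well as 10.01, 8.14, 10.02, 10.74 and 10.17 in shTet2. Replicate 2 was the lowest library of each group, by 3.32, 1.98 and 2.09 below the mean of the other replicates. Exact copies elsewhere covered 80.38% of its 75-base stretches.

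Rps29 (chromosome 12, 70258709 to 70260173, - strand) showed the same order with 10.63, 9.32, 10.92, 10.86 and 10.77 in shScr, 10.41, 9.84, 10.95, 11.12 and 11.51 in shTet1, compared with 10.39, 9.52, 10.55, 11.01 and 10.91 in shTet2. Rps16 and Rps29 were the members lower by more than 1 in replicate 2 than in the other replicates of every group, as were 24 of all 19490 tested genes, members included. Leaving out replicate 2 of all groups, an alternative chosen after seeing these values, gave 0 members called in each comparison, and Rps16 then differed by 0.36 in shTet1 and 0.29 in shTet2 against shScr.

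Other members followed the split between replicates 1 and 2 and replicates 3 to 5. Rps7, a small-subunit protein (chromosome 12, 29315712 to 29320818, - strand), had levels of 13.40, 13.73, 15.25, 14.22 and 15.11 in shScr, 13.48, 13.70, 14.93, 14.82 and 15.10 in shTet1, compared with 13.69, 13.64, 13.87, 14.50 and 14.50 in shTet2. In all groups, replicates 3 to 5 were above replicates 1 and 2. Rplp1 (chromosome 9, 61761091 to 61762345, - strand) had 13.38, 13.48, 14.21, 14.41 and 14.14 in shScr, 13.21, 13.86, 14.38, 14.27 and 14.60 in shTet1, compared with 13.44, 13.15, 14.46, 14.77 and 14.46 in shTet2, in the same order. Averaged over groups, replicates 3 to 5 exceeded replicates 1 and 2 by 1.43 for Rps16, which was low in replicate 2. The excess was 1.09 for Rps7, 0.99 for Rplp1, 0.93 for Rps29, 0.78 for Rps3a and 0.70 for Rps26 and Rpl36a.

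The opposite held for Rpl10a, at -0.65 on average, with levels of 11.74, 11.92, 10.94, 10.98 and 10.70 in shScr, 11.32, 11.72, 11.06, 11.09 and 11.12 in shTet1, compared with 11.60, 11.60, 11.09, 10.95 and 11.07 in shTet2. Rpl10 (-0.50) and Rps2 (-0.46) were next. The sign was the same in the 3 groups for 39 members, 29 of them higher and 10 lower in replicates 3 to 5, a share of 51.3% against 49% of the 7806 other genes. The average split went beyond ±0.5 in 13 members (17.1%), against 9.4% of the other genes. More than 1 RNA extraction method is named in the labels, with no library assigned to either. In the deposited table of repeat classes, reads of rRNA classes numbered 8.41 to 37.6 per 1000 gene reads in replicates 1 and 2 and 2.90 to 6.06 in replicates 3 to 5, apart from 8.85 in shTet2 replicate 3. The part of extraction and of rRNA content in these values was not tested.

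**Figure D4:**
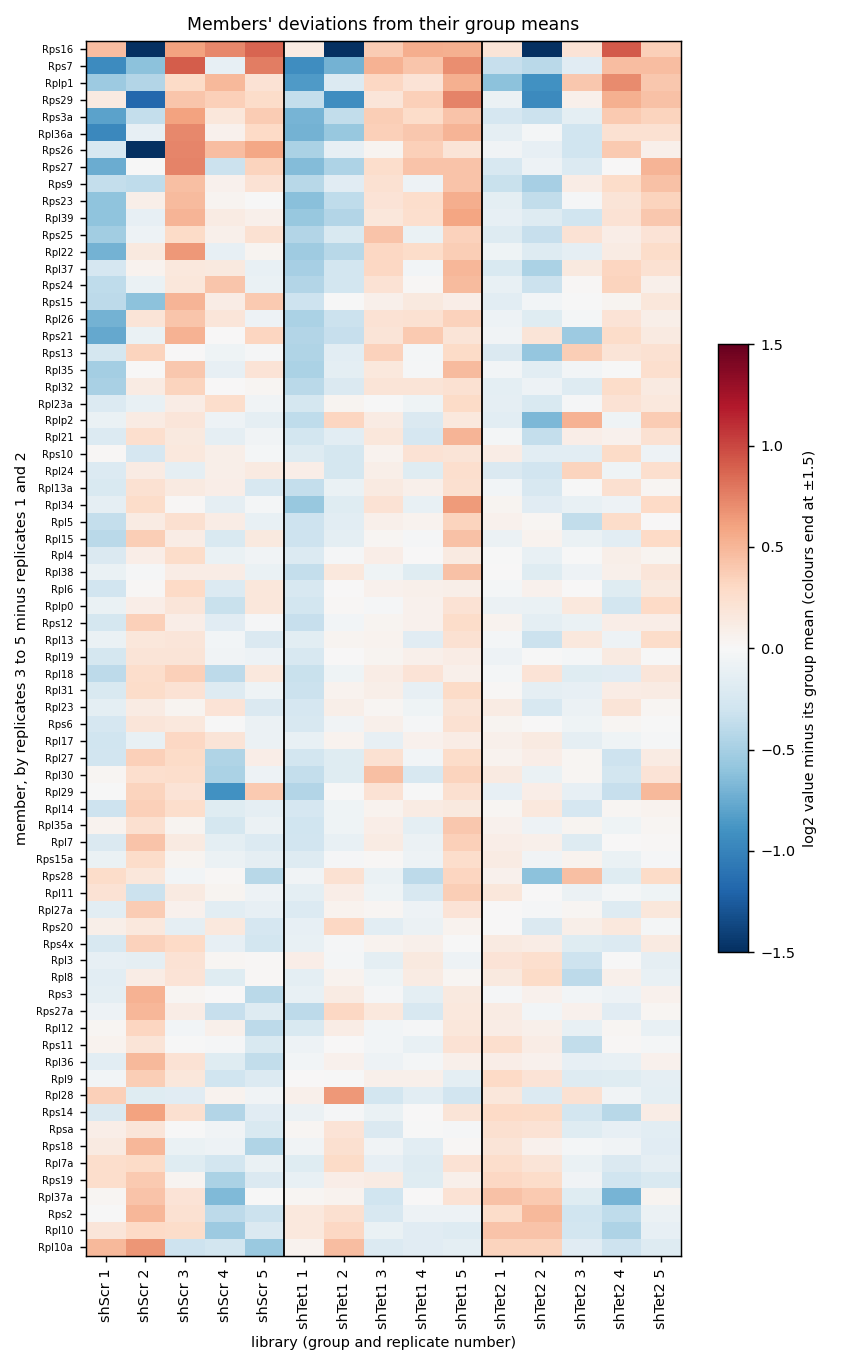
Deviation of each member's log2 level from its group mean (colour, red above and blue below, ending at ±1.5) in the 15 libraries, with 72 of the 76 members ordered by replicates 3 to 5 minus replicates 1 and 2. Rps7 and Rplp1 are blue in replicates 1 and 2 and red in most of replicates 3 to 5 of each group, Rps16 and Rps29 are darkest blue in replicate 2, with Rps16 red in replicate 1, and Rpl10a at the bottom is red in replicates 1 and 2 and blue in replicates 3 to 5.

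**Figure D5:**
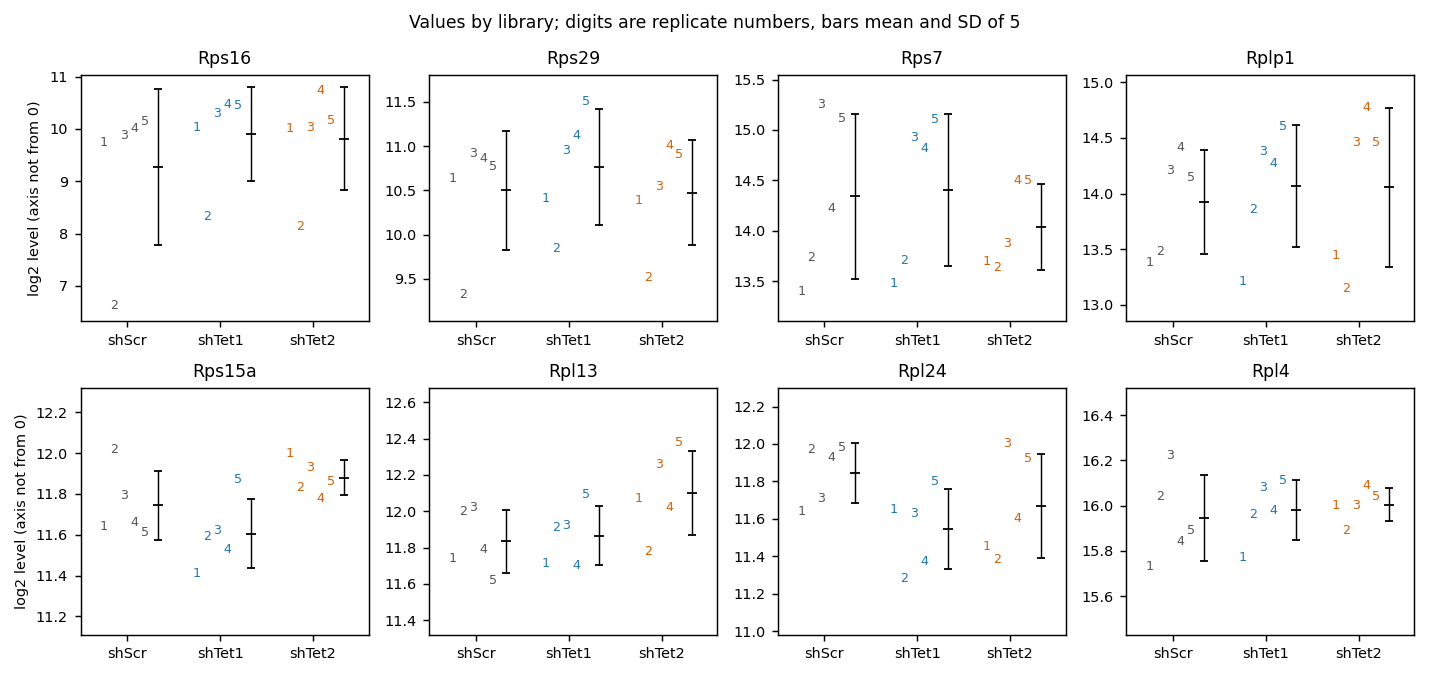
Log2 levels (vertical axes, not from 0 and different for each gene) of 8 members in shScr, shTet1 and shTet2; digits are replicate numbers and bars give the mean and SD of 5 libraries. Rps16 and Rps29 are lowest in replicate 2 of every group, Rps7 and Rplp1 are lower in replicates 1 and 2, and Rps15a, Rpl13, Rpl24 and Rpl4 span less than 1 unit in all libraries together.

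A principal component analysis of the members' deviations from their group means gave a first component with 49.1% of the variance and a second with 25.6%. On the first, replicates 1 and 2 of all groups lay on one side (0.13 to 0.36), replicates 3 to 5 of shScr and shTet1 and replicates 4 and 5 of shTet2 on the other (-0.13 to -0.32), and shTet2 replicate 3 near 0 (0.01). Rps16, Rps7, Rps29 and Rplp1 had the largest weights.

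Genes around the members gave few calls. Of the ribosomal proteins that the naming rule does not reach, Fau differed by -0.01 in shTet1 against shScr and Gnb2l1 (encoding RACK1) by -0.09 in shTet2 against shScr, neither past the threshold. Of 8 paralogs measured, none passed in any comparison. Rpl7l1, a nucleolar relative of Rpl7, had the lowest difference of them in shTet1 against shScr, -0.83 (SE 0.16, interval -1.16 to -0.50, limma adjusted p = 0.0527). It ranged from 11.70 to 12.62 in shTet1 and from 12.72 to 13.03 in shScr, with no overlap. With the replicate number as a block, which called 4.8% of all genes here, the adjusted p was 0.00341, and 10 of 32 alternatives put it past the threshold. In shTet2 against shScr Rpl7l1 had -0.50 (limma adjusted p = 0.186, or 0.0323 with the replicate block, which called 4.31% of all genes there).

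Of 53 named ribosomal protein pseudogenes tested, 0 passed, with median differences of 0.017, 0.035 and 0.002 for TET1 depletion, for TET2 depletion and between the knockdowns. Together the named pseudogenes took 5.32 to 7.62 per 1000 gene reads. Of 20 other mRNAs with a known TOP tract, such as Eef1a1, Eef2 and Tpt1, 0 passed, with medians of 0.036, 0.043 and -0.014. The highest of them in shTet1 against shScr was Hnrnpa1 at 0.56 (SE 0.26) and the lowest Pabpc1 at -0.35 (SE 0.33).

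The 76 mitochondrial ribosomal protein genes, whose products build the separate ribosome of mitochondria, had 0 calls in every comparison. Their medians were -0.049, -0.115 and -0.087, with 46, 59 and 57 genes lower. Across the alternatives, the median ran from -0.182 to 0.063 in shTet1 against shScr, with 26 to 58 genes lower. It ran from -0.22 to 0.09 in shTet2 against shTet1, with 25 to 70 lower, so its sign was not kept in either comparison. For shTet2 against shScr it stayed negative, from -0.222 to -0.041, with 43 to 72 lower. In shTet2 against shScr the median was -0.222 with median centring and -0.077 with quantile normalisation. Their lowest difference against shScr was that of Mrpl27 in shTet2, -0.52 (SE 0.16, adjusted p = 0.172, or 0.0278 with the replicate block), and Mrps14 passed with the block as well (-0.44). In shTet2 against shTet1 the block put Mrpl27 (-0.53), Mrpl4 (-0.40) and Mrpl37 (-0.34) past the threshold. These were 2 and 3 of the 76 genes, where the block called 4.31% and 11.2% of all genes.

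Ribosome biogenesis factors (55 genes, from RNA polymerase I to assembly factors) also had 0 calls, with medians of -0.104, -0.082 and -0.008. With quantile normalisation the medians were -0.064, -0.002 and 0.036. Across the alternatives they ran from -0.337 to 0.064, from -0.224 to -0.002 and from -0.1 to 0.142. Only in shTet2 against shScr was the sign of the median kept. Gar1, a protein of pseudouridylation particles, had the highest difference against shScr in both knockdowns (0.38 in shTet1 and 0.26 in shTet2), and Nol6 (-0.38) and Surf6 (-0.37) the lowest in shTet1 and shTet2, none past the threshold. With the replicate block, Rrp1b passed in shTet2 against shTet1 (-0.34), as did Eif4a2 (-0.36) and Vim (0.46) among the other TOP mRNAs. These were 1 of 55 and 2 of 20 genes, where the block called 11.2% of all genes.

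Among 20 regulators of ribosomal protein synthesis, 1 gene passed in 1 comparison, shTet2 against shTet1, where 4.24% of all genes did. This gene, Tsc1, whose product with TSC2 restrains mTOR complex 1, was lower in shTet2 than in shTet1 by -0.57 (SE 0.13, interval -0.85 to -0.29, limma adjusted p = 0.0189), with 9.09 to 9.52 in shTet2 and 9.57 to 10.20 in shTet1 and no overlap. It ranged from 9.59 to 9.89 in shScr, and its difference of -0.40 in shTet2 against shScr did not pass (limma adjusted p = 0.225). With the replicate block, which called 4.31% of all genes there, the adjusted p was 0.0403. The call in shTet2 against shTet1 was kept in 22 of 32 alternatives, with a limma adjusted p of up to 0.318 among them. Losses included the fits without shTet1 replicate 1, shTet1 replicate 4 or shTet2 replicate 1 (adjusted p of 0.0503, 0.0595 and 0.0607). Mdm2, the ubiquitin ligase of p53, had -0.63 in shTet1 against shScr (SE 0.14, limma adjusted p = 0.0792, or 0.00668 with the replicate block). It passed there in 2 of 32 alternatives, with an adjusted p of up to 0.887 among them. With the block Mdm2 also passed in shTet2 against shTet1 (0.43, limma adjusted p = 0.0182). The block called 4.8% of all genes in shTet1 against shScr and 11.2% in shTet2 against shTet1.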

How the data were processed

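The members and gene lists were chosen with earlier results of these data known. Per the labels and the study's methods, the authors trimmed reads (Trim Galore 0.3.3), aligned them to mm9 (TopHat2 2.0.9) keeping a single position per read, counted them per gene and deposited variance-stabilised values from DESeq2, which approach log2. A value of 4.2461, the table minimum, means 0 reads. Inverting the transformation returned whole reads (within 0.1) for 100% of values. These reads served for shares, levels per kilobase and voom.

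Differences were tested on the deposited log2 values with limma 3.58.1 (R 4.3.3; lmFit, eBayes with a variance trend, group as the only term, two-sided) over 15 libraries and 19490 genes above the minimum in at least 5 libraries, with Benjamini-Hochberg adjustment over all of them and a threshold of 0.05; the pipeline was checked on simulated data. Same-numbered libraries deviated together across genes (r of 0.374 to 0.657 between shTet1 and shScr, 0.330 to 0.731 between shTet2 and shTet1), so the numbers were taken as pairs there; between shTet2 and shScr replicate 3 reached 0.008, and the block is given only as an alternative.

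Named members, per comparison, were the 8 highest and 8 lowest differences, any past the threshold, the 5 highest and lowest levels per kilobase in shScr and the 3 widest and narrowest spreads. Of the other lists, calls and extremes were named; Mrps14, Mrpl4, Mrpl37, Rrp1b, Eif4a2, Rpl22, Rpl10a and the other genes of the replicate split were chosen after their values were seen. Positions are from GENCODE vM1 (mm9). Results of 4 members and 1 other gene are not reported here, singly or in plots, and stay in the counts and medians.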

Additional observations from a re-analysis of the deposited data

Results flagged for a closer look

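In 5 libraries a group, a library was looked at again where its gap to the nearest of the others took up most of the group's range (Dixon's test at the 95% level). This was done for 34 named members, Tet1, Tet2 and the summed share, 111 groups in all. Chance flags about 1 group in 20 where genes are not picked by their values. The named members were picked by differences, levels or spread in these data, so that rate is no yardstick for them. In all, 5 groups were flagged, 4 of them in a replicate 2. Rps16 was low in replicate 2 of every group, at 6.62 in shScr (nearest other library 9.74), 8.33 in shTet1 (10.03) and 8.14 in shTet2 (10.01). Rps29 was low in shScr replicate 2 at 9.32 (nearest 10.63). Rpl27 was low in shTet2 replicate 4 at 11.06 (nearest 11.40). All values are deposited log2 levels.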

How the results depend on the processing

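The count of members called was 0 in each comparison under all 32 alternatives, 15 of which left out 1 library each, and under the replicate block. Members with an unadjusted p under 0.05 numbered 0 to 4, 0 to 11 and 0 to 3 for TET1 depletion, TET2 depletion and shTet2 against shTet1. The 4 came within replicates 1 and 2 and the 11 within replicates 3 to 5, where 4394 and 1166 of 19490 genes had one. The 3 came within replicates 3 to 5 (2236 genes) and without replicate 2 of all groups (2405 genes). The smallest adjusted p of a member under the block was 0.06 (Rps16, shTet1 against shScr), 0.111 and 0.11. The members' median ranged, leaving out 1 library each, from -0.058 to 0.075, -0.011 to 0.078 and -0.042 to 0.071, and in the other alternatives from -0.11 to 0.082, -0.1 to 0.102 and -0.073 to 0.158, each less than the SD of the libraries' member means (0.15) from the value in all libraries. Median centring moved the median of all genes by -0.108 in shTet2 against shScr. No direction was read for the 45 named member differences, apart from Rps15a, since their intervals held 0; 24 of them changed sign in some alternative. Over all genes, the block called 935, 840 and 2178 genes in place of 14, 76 and 827. Against shScr, other counts over all genes ran from 0 within replicates 1 and 2 to 283 with array weights (shTet2 against shScr). In shTet2 against shTet1 they ran from 0 within replicates 1 and 2 to 1263 with the replicate split as a term.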
